A study of Mus musculus with 4 samples.

Results

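The genes described are 53 components of BMP and TGF-beta signalling, taken by symbol from a list of ligands, receptors, extracellular inhibitors, latent TGF-beta binding proteins, SMADs, regulators of SMAD signalling and ID genes. All 53 were found among the 55421 genes of the deposited count files, and the rule that selects them is a match of symbols, although the list was drawn up with earlier results of these data known. Their transcripts were measured in 4 libraries of ribosomal RNA-depleted total RNA from cultured mouse astrocytes, which had been differentiated from C57BL/6J neural stem cells in medium with fetal bovine serum. The astrocytes of 2 libraries had been infected with a lentivirus expressing an shRNA against Phf8 (labelled shPHF8), and those of the other 2 with a lentivirus expressing a control shRNA (labelled shctr). Serum, strain and lentiviral infection were thus shared by both groups. Phf8 encodes a histone lysine demethylase of the Jumonji family. The labels number the libraries of a group as replicates without saying whether they came from separate cultures or infections, and give neither the number of shRNA sequences used nor the share of infected cells.

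BMPs, TGF-betas, activins and GDFs are dimeric secreted ligands that bring together type I and type II receptor kinases at the cell surface. The type I receptor phosphorylates receptor SMADs (Smad1, Smad5 and Smad9 for BMPs, Smad2 and Smad3 for TGF-betas and activins), which enter the nucleus with Smad4. Typical direct targets of BMP signalling are the ID genes, whose products bind basic helix-loop-helix factors and keep them from DNA, and the pathway's own inhibitors Smad6, Smad7 and Bambi. In the developing brain BMPs favour astrocyte over neuron and oligodendrocyte formation, and TGF-beta acts on reactive astrocytes and on the extracellular matrix.

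Reads assigned to genes numbered 36839530 to 44724759 per library. Levels are given as CPM, a read count normalised to library size after TMM scaling (trimmed mean of M-values), and means with SD rest on n = 2 libraries per group. Levels of different genes are compared only as RPKM, which is CPM per kilobase of exons. Across genes, which are not independent replicates, Pearson's r of log2 CPM was 0.995 within each group and 0.958 to 0.962 between groups. Phf8 itself had 44.3 and 42.3 CPM in the Phf8 shRNA libraries, against 53.3 and 53 CPM in the control shRNA libraries, which is 18.5% less (log2 fold change -0.30 ± 0.06 SE). Mitochondrial ribosomal RNA took 27.8% and 28.2% of reads with Phf8 shRNA and 21.2% and 22.5% with control shRNA; without mitochondrial and the 20 most abundant genes the counts of members called, given below, were the same. The 15 astrocyte markers all had reads in these cultures, with 5 higher and 9 lower. Their summed level was 9782 to 10765 CPM with Phf8 shRNA and 12759 to 13069 CPM with control shRNA. Gfap gave 1172 CPM of this on average with Phf8 shRNA and 3971 CPM with control shRNA. Slc1a2 rose, with 975 CPM with Phf8 shRNA and 135 CPM with control shRNA. Sparcl1, Glul, Gja1 and Gjb6 also rose, and Slc1a3 was not called. Marker lists of other cell types also moved. Of 15 oligodendrocyte lineage markers 14 were tested and 13 rose, with a summed level of 1365 to 1421 CPM with Phf8 shRNA and 786 to 831 CPM with control shRNA. Of 15 neuron markers 10 were tested and 9 rose, while Gad2, Slc17a6, Slc17a7, Stmn2 and Nefl had too few reads to test. The list summed to 1954 to 1957 CPM with Phf8 shRNA and 1183 to 1223 CPM with control shRNA. Map2 gave 1385 CPM of this on average with Phf8 shRNA and 919 CPM with control shRNA. These 2 lists were higher with Phf8 shRNA, and that of ependymal and ciliated cells was lower: of its 10 genes 7 were tested and 6 fell, with sums of 30.6 to 31.6 CPM with Phf8 shRNA and 176 to 184 CPM with control shRNA, and Tmem212 at 0 in all libraries. Of 14 endothelial and mural markers 1 rose and 5 fell among 11 tested, and the sums overlapped at 71.8 to 77.1 CPM with Phf8 shRNA and 71.9 to 76.8 CPM with control shRNA, with Cdh5 at 0. Cspg4, also on the oligodendrocyte lineage list, gave 47.3 CPM of this on average with Phf8 shRNA and 45.1 CPM with control shRNA. Pdgfrb, the gene that rose, gave 23.9 CPM with Phf8 shRNA and 9.54 CPM with control shRNA, while Acta2, Kdr, Rgs5, Kcnj8 and Abcc9 fell. Of 13 fibroblast and meningeal markers 1 rose and 3 fell among 5 tested, with sums of 196 to 198 CPM with Phf8 shRNA and 178 to 181 CPM with control shRNA. Pdgfra, which is also on the oligodendrocyte lineage list, gave 187 CPM of these on average with Phf8 shRNA and 155 CPM with control shRNA. Of 14 microglia and macrophage markers 2 fell among 5 tested, with sums of 6.11 to 6.18 CPM with Phf8 shRNA and 8.95 to 9.66 CPM with control shRNA, and C1qa, C1qb and Trem2 at 0. The part of these shifts in the values below was not tested, and in bulk RNA fewer cells of a type and less RNA per cell cannot be told apart.

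With Phf8 shRNA, several inhibitors and targets that BMP and TGF-beta signalling is known to induce were lower, among them Smad6, Id3, Id1, Bambi and Pmepa1, but others were not: Id2 and Skil rose, and Smad7 was not called. Also lower were the ligand genes Bmp6, Tgfb3 and Bmp2, the type II receptor gene Tgfbr2 and the latency gene Ltbp1. Bmper, which encodes a secreted BMP-binding protein, was 5.98-fold higher, and Id2 was 1.80-fold higher. The transcripts of the receptor SMADs, of Smad4 and of most receptors differed by less than 1.5-fold. Of the 53 genes, 45 passed the low-count filter, 12 rose, 22 fell and 11 did not pass the test (edgeR's quasi-likelihood F test, threshold 0.05 on p adjusted by Benjamini-Hochberg over all genes). The background was high: 52.1% of the 21042 genes tested were called (24.8% higher and 27.3% lower), and so were 60.4% of the 14109 protein-coding genes (25.2% higher and 35.2% lower). A change of at least 2-fold was called for 2 members that rose and 9 that fell, against 5.5% and 8.71% of all genes tested. The median log2 fold change of the 45 members was -0.19, beside 0.01 for all genes tested. The higher share of all calls depended on scaling: it was 47.7% under TMM, 58.0% under the upper quartile and 40.3% under library size alone, while the counts of members called were 15 higher and 20 lower with upper-quartile scaling and 11 higher and 22 lower with library size alone. When the biological coefficient of variation, estimated at 3.64%, was set to 0.2, 12 members were still called, 2 higher (Bmper and Id2) and 10 lower (Bmp6, Smad6, Id3, Tgfbr2, Ltbp1, Tgfb3, Bambi, Id1, Bmp2 and Ski). The same 12 passed a test against a minimum fold of 1.5. At a coefficient of 0.4 the called members were Bmper, Bmp6, Smad6 and Id3.

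**Figure D1:**
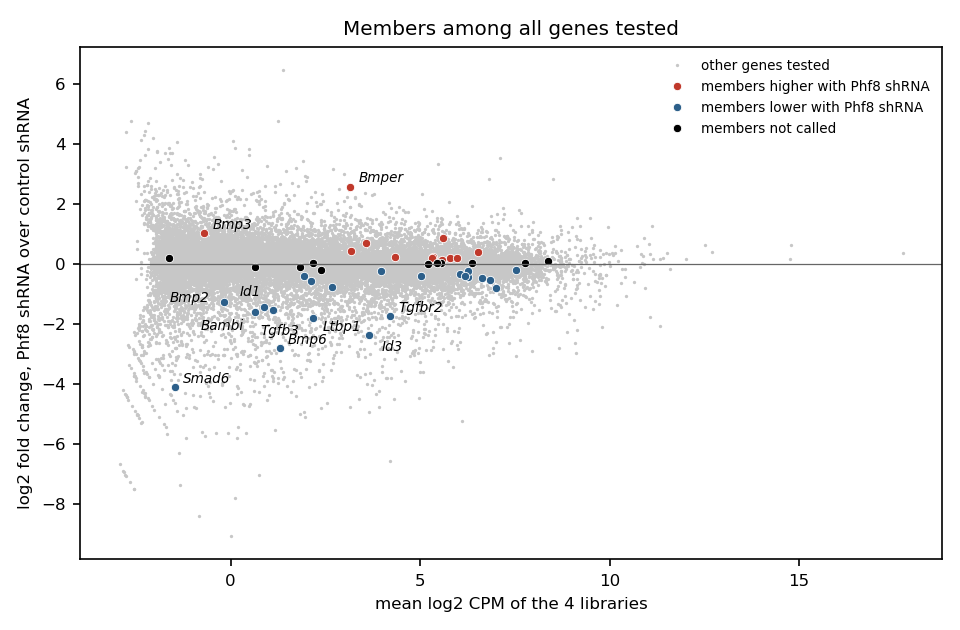
Log2 fold change (Phf8 shRNA over control shRNA, vertical axis) against the mean log2 CPM of the 4 libraries (horizontal axis) for all 21042 genes tested, with the 45 tested members as larger points coloured by call. The 11 members named in the plot changed at least 2-fold, with Smad6 at -4.11 and Bmper at 2.58.

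**Figure D2:**
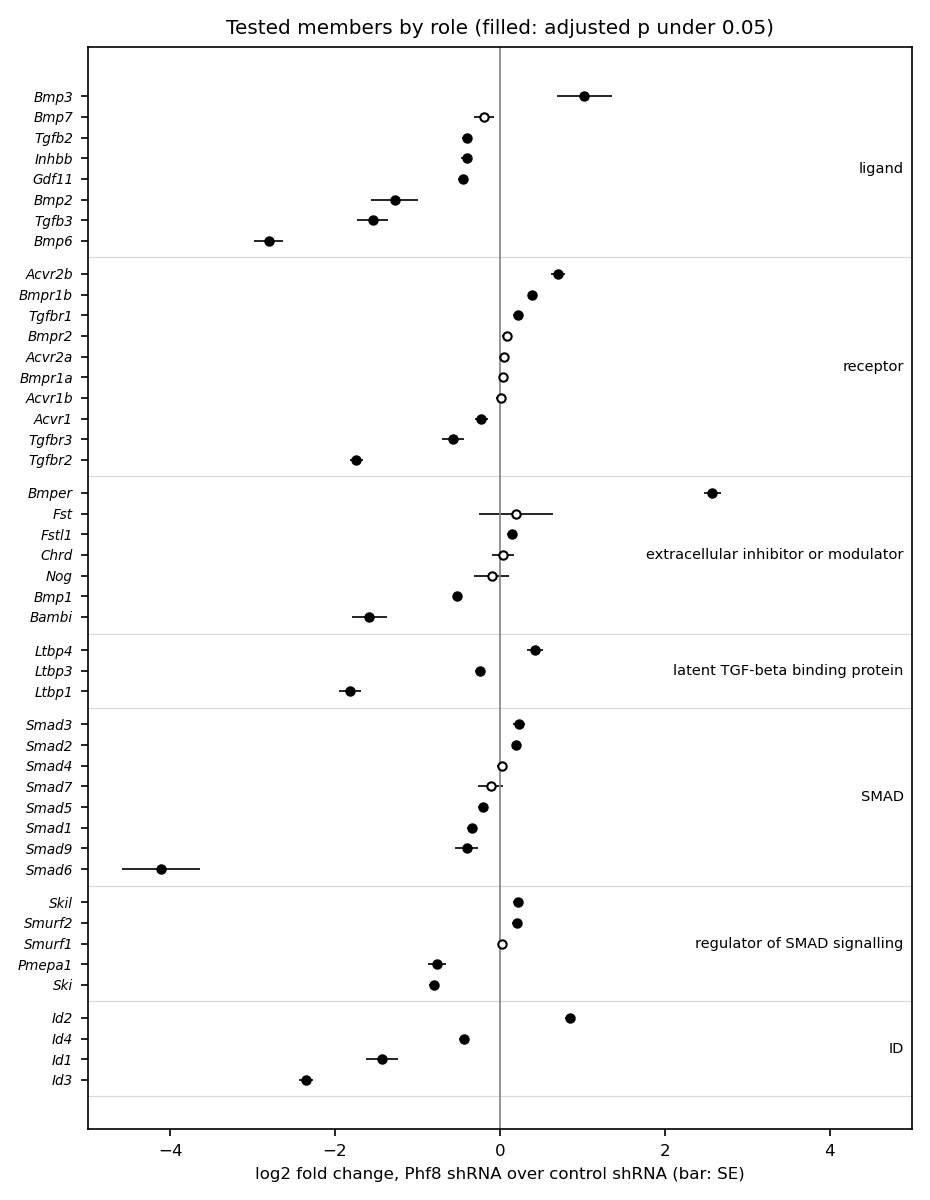
Log2 fold change of Phf8 shRNA over control shRNA (horizontal axis) with its standard error (bars) for the 45 members that passed the low-count filter, grouped by role. Filled points passed 0.05 on edgeR's adjusted p, and open points did not.

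Among the 13 ligand genes, 6 fell, among them Bmp6, Tgfb3 and Bmp2 by more than 2-fold, and Bmp3 rose at a low level. Bmp6, a BMP ligand of the osteogenic subfamily, lies on the plus strand of chromosome 13 from 38345107 to 38500302 in mm10. It had 0.902 and 0.899 CPM in the Phf8 shRNA libraries, against 6.61 and 6.01 CPM in the control shRNA libraries. Both Phf8 shRNA libraries were far below both control libraries, 6.99-fold lower (log2 fold change -2.81 ± 0.17 SE, adjusted p = 1.06e-56 in edgeR's test). The sums behind it were 72 reads with Phf8 shRNA and 532 reads with control shRNA, and 5.7% of the exonic length of Bmp6 overlapped exons of Txndc5 on the opposite strand. Bmp2, whose product signals through the same SMADs, had 0.532 and 0.545 CPM with Phf8 shRNA and 1.13 and 1.49 CPM with control shRNA (-1.28 ± 0.28). Bmp7 had 4.21 and 5.50 CPM with Phf8 shRNA and 5.66 and 5.33 CPM with control shRNA, and its groups overlapped (-0.19 ± 0.12, adjusted p = 0.192 in edgeR's test). Of the alternatives tried, it was called lower only without Phf8 shRNA replicate 2, at a log2 fold change of -0.38. Bmp3, whose product is an atypical BMP that can oppose the others, had 0.925 and 0.763 CPM with Phf8 shRNA and 0.578 and 0.244 CPM with control shRNA. Its log2 fold change of 1.03 ± 0.33 rested on 68 reads with Phf8 shRNA and 35 reads with control shRNA. It was 1.77 without control replicate 1, 0.56 and no longer called without control replicate 2, and 0.87 and no longer called without Phf8 shRNA replicate 1.

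Bmp4, one of the main BMP ligands of the developing nervous system, did not pass the filter. It had 9 and 6 reads in the Phf8 shRNA libraries and 1 read in each control library. The depth-adjusted ratio of these reads was 7.90, with a 95% exact binomial interval of 1.84 to 71.2 that covers counting error only. Bmp5 had 0 reads in all 4 libraries. By counting alone this allows up to 0.0375 CPM with Phf8 shRNA and 0.0356 CPM with control shRNA (3 reads over the group). Exons of Gm26903 on the opposite strand overlapped 46.7% of the exonic length of Bmp5. With the strand setting of counting not given, its level is uncertain. The BMP ligand genes together amounted to 1.65 and 1.93 RPKM with Phf8 shRNA, against 3.51 and 3.33 RPKM with control shRNA. Bmp6 made up 14.1% and 11.95% of that sum with Phf8 shRNA and 48.3% and 46.3% with control shRNA, while Bmp7 made up 63.6% and 71.0% with Phf8 shRNA and 40.1% and 39.8% with control shRNA. The leading BMP ligand transcript per length was thus Bmp7 in both Phf8 shRNA libraries and Bmp6 in both control libraries.

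The TGF-beta ligand transcripts were almost all Tgfb2 in both groups. Tgfb2 had 66.9 and 59.5 CPM with Phf8 shRNA and 81.9 and 85.4 CPM with control shRNA (log2 fold change -0.40 ± 0.06 SE), and it held 97.1% and 95.6% of the summed RPKM of TGF-beta ligand genes with Phf8 shRNA and 92.5% and 93.5% with control shRNA. Tgfb3 fell more, with 1.04 and 1.47 CPM in the Phf8 shRNA libraries and 3.81 and 3.42 CPM in the control libraries (-1.54 ± 0.19, adjusted p = 6.89e-16 in edgeR's test). Exons of Tgfb3 overlapped opposite-strand genes over 12.4% of their length. Tgfb1, the ligand best known from injury and inflammation, stayed below the filter with 7 and 8 reads in the Phf8 shRNA libraries and 5 and 2 reads in the control libraries. The ratio of those reads was 2.26, and its 95% exact binomial interval of 0.866 to 6.54 included equality. Among the activin and GDF genes, Gdf11 was the ligand with the highest level per length (20.9 RPKM with Phf8 shRNA and 28.5 RPKM with control shRNA on average). Gdf11, whose product is an activin-type ligand that restrains neural progenitor output, had 83.7 and 85.8 CPM with Phf8 shRNA and 118 and 114 CPM with control shRNA (-0.45 ± 0.06). Inhbb, which encodes the activin B subunit, had 29.3 and 27.5 CPM with Phf8 shRNA and 39.3 and 35.8 CPM with control shRNA (-0.40 ± 0.06). Inhba, the activin A subunit gene, had 9 reads with Phf8 shRNA and 22 with control shRNA, and Gdf10 had 3 reads with Phf8 shRNA and 0 with control shRNA, so neither was tested. Of the 13 ligand genes 1 rose, 6 fell, 1 was not called and 5 were not tested. Of those tested 75% fell, beside 35.2% of protein-coding genes and 27.3% of all genes. Among the 6 that fell, the adjusted p was largest for Bmp2 (2.01e-05, edgeR).

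**Figure D3:**
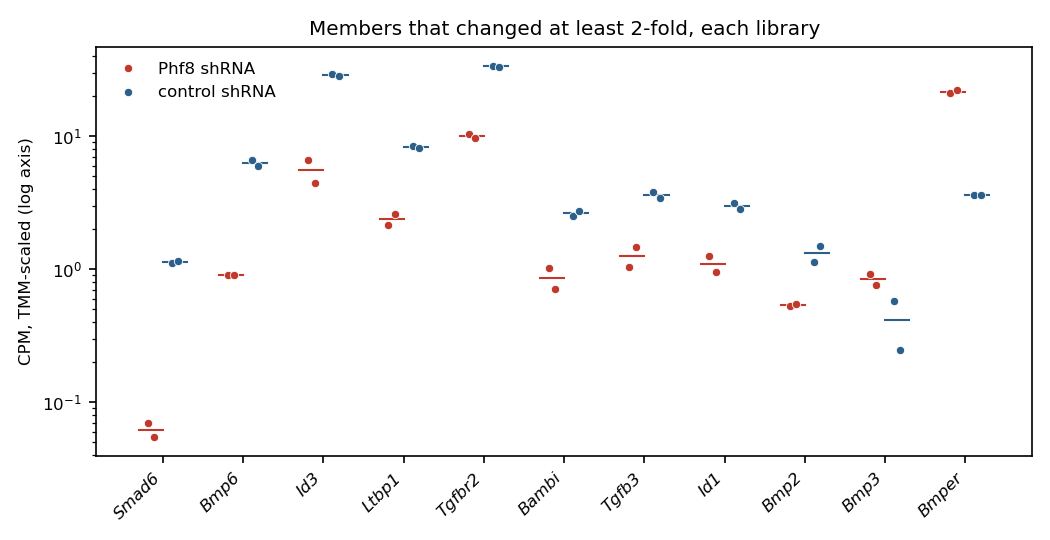
CPM after TMM scaling (vertical log axis) of the 11 members that changed at least 2-fold, ordered by log2 fold change. Each point is a library and each line the mean of the 2 libraries of a group. The groups of each gene do not overlap, as these genes were chosen for a called change. Bmp3 and Bmper are the genes higher with Phf8 shRNA.

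Of the 11 receptor genes 3 rose, 3 fell, 4 were not called and 1 was not tested. The share called, 60% of the 10 tested, was near the 60.4% of protein-coding genes and the 52.1% of all genes tested. Tgfbr2, the type II receptor that binds TGF-beta and activates Tgfbr1, fell the most of these 10 tested genes. It lies on the minus strand of chromosome 9 from 116084293 to 116175360 and had 10.4 and 9.64 CPM in the Phf8 shRNA libraries, against 34.0 and 33.1 CPM in the control libraries. It was 3.34-fold lower (log2 fold change -1.74 ± 0.08 SE, adjusted p = 8.73e-114 in edgeR's quasi-likelihood test). The partner gene Tgfbr1 had 42.5 and 44.98 CPM with Phf8 shRNA and 37.7 and 37.2 CPM with control shRNA (0.22 ± 0.06). Tgfbr2 thus made up 16.3% and 14.6% of the summed RPKM of both TGF-beta receptor genes with Phf8 shRNA, against 41.9% and 41.6% with control shRNA. Tgfbr3, the betaglycan co-receptor gene, had 3.54 and 3.57 CPM with Phf8 shRNA and 5.15 and 5.35 CPM with control shRNA (-0.56 ± 0.13).

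Of the BMP receptor genes, Bmpr1a and Bmpr2 were not called, Bmpr1b and Acvr2b rose and Acvr1 fell. Bmpr1a, a type I BMP receptor, had the highest level per length of all 53 members, with means of 34.8 RPKM with Phf8 shRNA and 33.8 RPKM with control shRNA. Its libraries overlapped at 234 and 208 CPM with Phf8 shRNA and 212 and 218 CPM with control shRNA, and it was not called (0.04 ± 0.06, adjusted p = 0.580 in edgeR's test). Of the alternatives tried, Bmpr1a was called higher with upper-quartile scaling and without Phf8 shRNA replicate 2, and its log2 fold change ranged from -0.0464 to 0.126. The related Bmpr1b had 111 and 102 CPM with Phf8 shRNA and 80.4 and 82.2 CPM with control shRNA (0.39 ± 0.06). Its share of the summed RPKM of the BMP type I receptor genes was 31.8% and 32.6% with Phf8 shRNA and 26.8% and 26.7% with control shRNA. Acvr1, the third gene of that group, had 14.8 and 13.9 CPM with Phf8 shRNA and 16.7 and 16.9 CPM with control shRNA (-0.23 ± 0.08), and it lost its call without control replicate 2 (adjusted p = 0.0696, edgeR) and without Phf8 shRNA replicate 2 (0.0929). Acvr2b, a type II receptor for activins, GDFs and some BMPs, had 14.99 and 15.5 CPM with Phf8 shRNA and 9.69 and 8.97 CPM with control shRNA (0.71 ± 0.09, adjusted p = 3.04e-15 in edgeR's test). The type II receptor genes Bmpr2 and Acvr2a and the activin type I receptor gene Acvr1b had log2 fold changes of 0.08, 0.05 and 0.01 that were not called. Eng, an endothelial TGF-beta co-receptor gene, had 5 reads with Phf8 shRNA and 8 with control shRNA.

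Of the 8 extracellular inhibitors and modulators, Bmper rose and the pseudoreceptor gene Bambi fell, both by more than 2-fold. Bmper encodes a secreted chordin-like protein that binds BMPs and has been reported to inhibit or to promote their signalling. It lies on the plus strand of chromosome 9 from 23223076 to 23485200 and had 21.1 and 22.2 CPM in the Phf8 shRNA libraries, against 3.58 and 3.64 CPM in the control libraries. The groups were far apart (log2 fold change 2.58 ± 0.10 SE, adjusted p = 6.54e-151 in edgeR's test). Bambi, which encodes a receptor-like protein without a kinase that dampens signalling, had 1.02 and 0.708 CPM with Phf8 shRNA and 2.52 and 2.74 CPM with control shRNA (-1.58 ± 0.21). Bmp1, which despite its name encodes a metalloprotease that cuts chordin and procollagens, had 96.9 and 95.9 CPM with Phf8 shRNA and 142 and 134 CPM with control shRNA (-0.52 ± 0.06). Fstl1, a follistatin-like gene, had 49.95 and 50.6 CPM with Phf8 shRNA and 44.5 and 46.4 CPM with control shRNA (0.15 ± 0.06), and it lost its call without control replicate 1 (adjusted p = 0.235, edgeR), without Phf8 shRNA replicate 2 (0.0702), with library size alone (0.129) and with no low-count filter (0.0678). The classical BMP antagonists noggin (Nog) and chordin (Chrd) and the activin antagonist follistatin (Fst) were not called, at log2 fold changes of -0.10 ± 0.21, 0.04 ± 0.13 and 0.20 ± 0.45. Nog had 1.503 and 1.44 CPM with Phf8 shRNA and 1.57 and 1.59 CPM with control shRNA. Grem1, another BMP antagonist gene, had 5 reads, all in Phf8 shRNA replicate 1. Over the 8 genes 2 rose, 2 fell, 3 were not called and 1 was not tested. The share called, 57.1% of those tested, was near the 60.4% of protein-coding genes and the 52.1% of all genes.

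Several, though not all, of the latent TGF-beta binding proteins hold TGF-beta in an inactive form in the matrix. Ltbp1 had 2.15 and 2.59 CPM with Phf8 shRNA and 8.39 and 8.19 CPM with control shRNA (log2 fold change -1.81 ± 0.13 SE, adjusted p = 4.65e-42 in edgeR's test). Ltbp3, which had 70.5 and 70.4 CPM with Phf8 shRNA and 87.3 and 79.1 CPM with control shRNA, fell by 0.24 ± 0.06 on the log2 scale. Ltbp4 rose, with 9.85 and 11.0 CPM with Phf8 shRNA and 8.44 and 7.02 CPM with control shRNA (0.42 ± 0.10). Ltbp3 held most of the summed RPKM of this family in both groups, with 81.6% and 79.8% with Phf8 shRNA and 81.9% and 82.4% with control shRNA. Ltbp2 had 16 reads with Phf8 shRNA and 17 with control shRNA and was not tested.

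Among the 8 SMAD genes the inhibitory Smad6 stood apart from the rest. Smad6, whose product blocks BMP type I receptors and Smad1, lies on the minus strand of chromosome 9 from 63953076 to 64022059. It had 3 and 2 reads in the Phf8 shRNA libraries and 48 and 47 reads in the control libraries, which is 0.0694 and 0.0545 CPM with Phf8 shRNA and 1.11 and 1.15 CPM with control shRNA. The depth-adjusted level was 18.05-fold lower with Phf8 shRNA, with a 95% exact binomial interval of 7.47 to 56.9 for counting error, and the fitted log2 fold change was -4.11 ± 0.47 (SE, adjusted p = 1.86e-17 in edgeR's quasi-likelihood test). Smad7, the inhibitory SMAD of both branches, had 3.21 and 3.57 CPM with Phf8 shRNA and 3.86 and 3.45 CPM with control shRNA, and its groups overlapped (-0.11 ± 0.15, adjusted p = 0.549 in edgeR's test). Smad6 accordingly made up 2.95% and 2.11% of the summed RPKM of both inhibitory SMAD genes with Phf8 shRNA, against 28.8% and 32.0% with control shRNA.

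The receptor SMAD genes of the BMP branch were slightly lower and those of the TGF-beta and activin branch slightly higher. Smad1 had 60.2 and 57.2 CPM with Phf8 shRNA and 73.5 and 75.4 CPM with control shRNA (log2 fold change -0.34 ± 0.06 SE). Smad5, the most abundant SMAD gene per length, had 178 and 167 CPM with Phf8 shRNA and 200 and 199 CPM with control shRNA (-0.20 ± 0.06). Smad9 had 3.38 and 3.19 CPM with Phf8 shRNA and 4.16 and 4.55 CPM with control shRNA (-0.40 ± 0.14), and was not called without control replicate 2 (adjusted p = 0.141, edgeR). Together the 3 genes gave 34.3 and 32.3 RPKM with Phf8 shRNA, below the 39.4 and 39.6 RPKM with control shRNA. Smad2 had 69.0 and 65.8 CPM with Phf8 shRNA and 58.5 and 59.1 CPM with control shRNA (0.20 ± 0.06). Smad3 had 22.3 and 21.3 CPM with Phf8 shRNA and 18.6 and 18.5 CPM with control shRNA (0.23 ± 0.07), and was not called without Phf8 shRNA replicate 1 (adjusted p = 0.0506, edgeR). Their sum was 11.9 and 11.3 RPKM with Phf8 shRNA, against 10.0 and 10.1 RPKM with control shRNA. Smad4, the SMAD that both branches share, was not called, at 84.5 and 81.3 CPM with Phf8 shRNA and 79.9 and 83.6 CPM with control shRNA (0.02 ± 0.06). Each of these 6 genes differed by less than 1.5-fold.

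Among regulators of SMAD signalling, 2 rose, 2 fell and 1 was not called, where 52.1% of all genes tested were called. Ski, which encodes a co-repressor that binds SMADs, had 99.2 and 94.6 CPM with Phf8 shRNA and 169 and 170 CPM with control shRNA (-0.80 ± 0.06, adjusted p = 3.12e-45 in edgeR's quasi-likelihood test). Its relative Skil, known as a TGF-beta target and inhibitor, moved the other way, with 44.6 and 41.9 CPM with Phf8 shRNA and 37.5 and 36.9 CPM with control shRNA (0.22 ± 0.06). Pmepa1, a TGF-beta target whose product restrains Smad2 and Smad3, had 4.26 and 5.61 CPM with Phf8 shRNA and 8.62 and 7.94 CPM with control shRNA (-0.76 ± 0.11). The ubiquitin ligase gene Smurf2 had 59.9 and 59.7 CPM with Phf8 shRNA and 51.8 and 51.6 CPM with control shRNA (0.21 ± 0.06), and Smurf1 was not called (0.03 ± 0.06).

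The 4 ID genes did not move together: Id1, Id3 and Id4 fell and Id2 rose. Id3 lies on the plus strand of chromosome 4 from 136143497 to 136145755 and had 6.66 and 4.47 CPM in the Phf8 shRNA libraries, against 29.4 and 28.2 CPM in the control libraries (log2 fold change -2.35 ± 0.09 SE, adjusted p = 2.32e-161 in edgeR's quasi-likelihood test). Id1 had 1.249 and 0.953 CPM with Phf8 shRNA and 3.14 and 2.84 CPM with control shRNA (-1.43 ± 0.20). Id4, which is expressed in neural stem cells and astrocytes, had 70.7 and 61.9 CPM with Phf8 shRNA and 86.0 and 93.6 CPM with control shRNA (-0.44 ± 0.06). Id2, on the minus strand of chromosome 12 from 25093799 to 25097140, had 68.8 and 62.6 CPM with Phf8 shRNA and 35.6 and 37.4 CPM with control shRNA (0.85 ± 0.06, adjusted p = 1.74e-46 in edgeR's test). The summed level of the ID genes was 51.4 and 45.1 RPKM with Phf8 shRNA and 56.05 and 57.9 RPKM with control shRNA. Within that sum, Id2 held 54.95% and 57.0% with Phf8 shRNA and 26.0% and 26.5% with control shRNA. Id3 held 7.24% and 5.53% with Phf8 shRNA, against 29.3% and 27.2% with control shRNA. The most abundant ID transcript per length was therefore Id2 in both Phf8 shRNA libraries and Id4 in both control libraries, while the sum differed less than its parts.

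**Figure D4:**
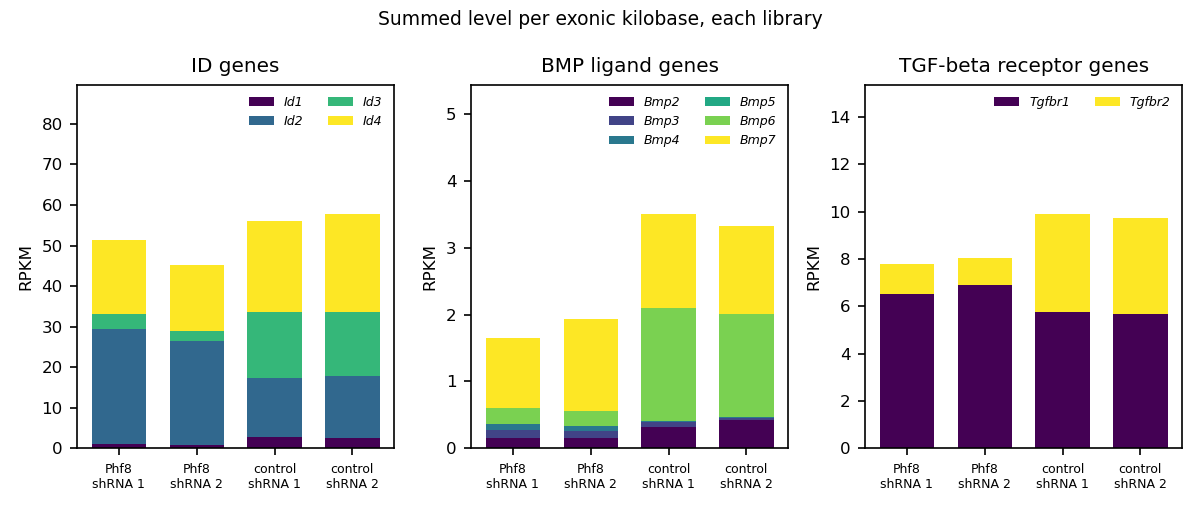
Summed RPKM (vertical axes, from 0) of the ID genes, the BMP ligand genes and the TGF-beta receptor genes in each Phf8 shRNA library (left) and control shRNA library (right), with each gene's part stacked. The parts of Id2 and Bmp7 are the largest of their sums with Phf8 shRNA, and the parts of Id3, Bmp6 and Tgfbr2 are smaller there than with control shRNA.

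The promoters of Id2, the ID gene that rose, of Id3, the ID gene that fell the most, and of Smad6 and Bmper, which had the largest fall and rise of the tested members, are shown because SMAD-binding motifs have been described in promoters of BMP targets. Each is the RefSeq window (GRCm38.p6, the same assembly as mm10) of 250 bases before to 50 after the transcription start, written in the direction of transcription. Capitals mark GTCT on either strand (also read as AGAC), the short SMAD-binding motif, and GGCGCC, the GC-rich motif of BMP SMADs, which reads the same on both strands.
Id2 (chr12:25096043-25096342, minus strand): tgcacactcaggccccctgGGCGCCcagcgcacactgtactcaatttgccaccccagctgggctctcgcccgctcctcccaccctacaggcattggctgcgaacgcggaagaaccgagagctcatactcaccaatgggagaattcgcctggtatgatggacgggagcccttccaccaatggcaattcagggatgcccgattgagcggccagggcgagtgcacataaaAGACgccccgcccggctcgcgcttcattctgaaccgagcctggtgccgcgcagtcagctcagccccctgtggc
Id3 (chr4:136143572-136143871, plus strand): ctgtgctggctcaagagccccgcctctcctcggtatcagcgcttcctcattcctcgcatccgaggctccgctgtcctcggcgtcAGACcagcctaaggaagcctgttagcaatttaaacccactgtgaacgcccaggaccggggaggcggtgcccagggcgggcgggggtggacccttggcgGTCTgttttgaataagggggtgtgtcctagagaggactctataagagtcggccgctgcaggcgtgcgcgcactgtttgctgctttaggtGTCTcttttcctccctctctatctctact
Smad6 (chr9:64022010-64022309, minus strand): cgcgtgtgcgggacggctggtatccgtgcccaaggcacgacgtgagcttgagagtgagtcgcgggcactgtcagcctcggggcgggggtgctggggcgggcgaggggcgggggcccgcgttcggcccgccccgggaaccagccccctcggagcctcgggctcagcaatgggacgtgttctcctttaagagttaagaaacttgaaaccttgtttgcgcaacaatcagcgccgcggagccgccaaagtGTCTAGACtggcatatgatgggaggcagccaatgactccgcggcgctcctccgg
Bmper (chr9:23222826-23223125, plus strand): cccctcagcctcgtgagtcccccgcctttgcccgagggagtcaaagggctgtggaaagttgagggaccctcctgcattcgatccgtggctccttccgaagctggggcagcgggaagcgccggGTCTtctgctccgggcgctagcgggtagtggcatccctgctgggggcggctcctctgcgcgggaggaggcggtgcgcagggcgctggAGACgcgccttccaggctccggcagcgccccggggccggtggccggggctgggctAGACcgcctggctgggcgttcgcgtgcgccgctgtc
The window of Smad6 holds the palindrome GTCTAGAC, in which GTCT and AGAC are joined, with its first base at -4 relative to the start. This palindrome is in 0.213% of the 32851 RefSeq windows of this length. The window of Id2 holds GGCGCC with its first base at -231, and those of Id3, Smad6 and Bmper do not hold these letters. The window of Id4, an ID gene that fell, also holds GGCGCC, with its first base at -148, so the motif was found with both directions of change. GTCT is so short that 88.0% of all windows hold it, and GGCGCC is in 11.9%. RefSeq windows were examined for 38 of the 53 members, 46 windows in all, some of which overlap because a gene has several starts. No window was examined for the other members, among them Bambi, Smad2, Smad4 and Smad7, so these motifs may or may not be present there. GGCGCC was in 16 of the 46, in 5 of 18 windows of genes that fell, 5 of 14 of genes that rose and 4 of 6 of genes that were not called, the other 8 windows being of untested genes. GTCTAGAC was in 1 of the 46 windows, that of Smad6, and was not looked for in Smad7. Binding was not measured in these libraries.

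Of pathway genes outside the 53, the extracellular inhibitors and modulators fell more often than they rose. This list is not of inhibitors alone, as Thbs1 below shows. Of its 31 genes, 21 were tested, 6 rose, 11 fell and 4 were not called, and their log2 fold changes had a median of -0.34. Among all genes tested 24.8% rose and 27.3% fell. Chrdl1, a BMP antagonist secreted by astrocytes, had 2.44 ± 0.0546 CPM with Phf8 shRNA and 15.8 ± 0.182 CPM with control shRNA (SD, n = 2 each). Nbl1, a BMP antagonist of the DAN family, had 78.1 ± 6.27 CPM with Phf8 shRNA and 195 ± 6.96 CPM with control shRNA (log2 fold change -1.32 ± 0.06 SE). Thbs1, whose product can activate latent TGF-beta, had 3.51 ± 0.338 CPM with Phf8 shRNA and 29.4 ± 1.66 CPM with control shRNA. Htra1, a secreted protease gene, moved up, to 17.0 ± 0.992 CPM with Phf8 shRNA, against 4.60 ± 0.199 CPM with control shRNA (1.88 ± 0.10). Among 9 further receptor and co-receptor genes, 4 were tested and 2 rose, namely the BMP co-receptor genes Rgma (180 ± 0.511 CPM with Phf8 shRNA and 109 ± 4.72 CPM with control shRNA) and Rgmb (0.40 ± 0.07). Of 20 further ligand genes only 4 passed the filter, and Gdf9 and Amh rose at levels below 2 CPM (0.71 ± 0.23 and 0.88 ± 0.32). Of 30 intracellular regulators 28 were tested, 5 rose, 9 fell and 14 were not called, with a median of -0.03. Among all genes tested 52.1% were called. Runx1, a SMAD-interacting transcription factor gene, was 20.9-fold lower (0.697 ± 0.0610 CPM with Phf8 shRNA and 14.7 ± 1.13 CPM with control shRNA), Runx2 and the co-repressor gene Tgif1 fell by 1.34 and 0.79 on the log2 scale, and Zfp423, whose product works with BMP SMADs, rose by 0.40.

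Known target genes of the pathway were mostly lower. Of 22 TGF-beta and Smad3 targets, 15 were tested, 11 fell (9 of them at least 2-fold), 1 rose and 3 were not called. Their log2 fold changes had a median of -1.82. Among all genes tested 27.3% fell (8.71% at least 2-fold) and 24.8% rose. Among protein-coding genes 35.2% fell and 25.2% rose. The matrix-associated gene Ccn1 had 5.49 ± 0.215 CPM with Phf8 shRNA and 48.9 ± 1.26 CPM with control shRNA (-3.15 ± 0.08 SE), and the intermediate filament gene Vim had 1272 ± 115 CPM with Phf8 shRNA and 5288 ± 137 CPM with control shRNA (-2.06 ± 0.07). Fn1 and Ccn2 fell by 5.22 and 5.64 on the log2 scale, and 23.2% of the exonic length of Ccn2 overlapped an opposite-strand gene. The gene that rose was Cdkn1a, a cell cycle inhibitor that is also on the list of BMP targets (17.3 ± 1.22 CPM with Phf8 shRNA and 6.70 ± 0.861 CPM with control shRNA). Of 20 BMP targets outside the 53, 12 were tested, 8 fell, 2 rose and 2 were not called, with a median of -0.70. Hes1 had 5.56 ± 0.0827 CPM with Phf8 shRNA and 13.5 ± 0.574 CPM with control shRNA, Lfng fell by 0.79 on the log2 scale, and Prrx1 rose by 0.63. Many genes on these target lists also respond to other pathways.

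Basic helix-loop-helix genes, whose products ID proteins bind or affect, were mostly higher. Of 18 such genes 10 were tested, 6 rose, 1 fell (Hes1) and 3 were not called, and their log2 fold changes had a median of 0.40. Among all genes tested 24.8% rose and 27.3% fell. The Notch effector gene Hes5 had 17.2 ± 0.138 CPM with Phf8 shRNA and 3.05 ± 0.389 CPM with control shRNA (2.50 ± 0.10 SE), with 31.8% of its exonic length overlapping an opposite-strand gene. The E protein gene Tcf4 had 908 ± 10.2 CPM with Phf8 shRNA and 629 ± 13.4 CPM with control shRNA (0.53 ± 0.06). Olig1 and Olig2 are on this list and on that of oligodendrocyte lineage markers, whose summed level was also higher.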

How the data were processed

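The authors deposited 1 table per library with the chromosome, start, end and strand of 55421 genes and a whole-number count of reads per gene. These were read as raw counts because library totals differ. Per the submitters' processing notes, HISAT2, HTSeq and DESeq2 were used with the mm10 build. The sources used here give no versions, annotation release or strand setting of counting, so levels of genes overlapping an opposite-strand gene are uncertain. Symbols matched 55154 identifiers, and a shared symbol (213 identifiers) went to the identifier with the most reads. GENCODE M21, of the same build, gave exonic lengths and overlaps. Hjv was looked up as Hfe2.

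Counts of all genes were tested with edgeR 4.0.16 in R 4.3.3 (filterByExpr, TMM, quasi-likelihood F test, two-sided, Benjamini-Hochberg over all genes), without covariates. A call is an adjusted p under 0.05. Standard errors were derived from log2 fold changes and F values. The fit was tested on simulated data. Members and lists were chosen with earlier results of these data known, and their counts are descriptions. All members are named. Values per library are given for up to 6 called members of each role by p and for the most abundant per length. Bmp3, Bmp4, Bmp7, Tgfb1, Nog, Smad4 and Smad7 were added outside this rule, after their values were seen. From each further pathway list, up to 4 called genes are named. Cdkn1a of the TGF-beta targets and Olig1 and Olig2 of the basic helix-loop-helix genes are named outside this rule. Some listed genes are not reported here. Alternatives were other scalings, tools (DESeq2 1.42.0, limma-voom 3.58.1), filters, thresholds, fixed spreads, a replicate block and leaving out each library. With separate cultures not stated, p-values reflect only library spread, which may be technical. TMM assumes that most genes do not differ.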

Additional observations from a re-analysis of the deposited data

How the results depend on the processing

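Across 17 alternatives, Bmper, Bmp6, Smad6 and Id3 kept their direction and call. A biological coefficient of variation of 0.2 gave 1262 higher and 2043 lower genes, with 2 and 10 members, a coefficient of 0.4 gave 172 and 639 genes, with 1 and 3 members, and a minimum fold of 1.5 gave 1248 and 2060 genes, with 2 and 10 members. With DESeq2's Wald test Bmp3, Acvr1, Fstl1, Smad3 and Smad9 lost their call, and Fstl1 also lost it with library size alone and with no filter. Leaving out each library in turn gave 10 to 12 members higher and 20 to 22 lower, and 4038 to 4755 genes higher and 4917 to 5480 lower. In these fits 1 group has a single library, which is assumed to vary like the other group. The other scalings, tools, filters and left-out genes moved no count by more than 1.5 times. Every sign change was of a member that was not called. With library size alone the log2 fold changes were -0.0125 for Bmpr1a, -0.0400 for Acvr1b, -0.0025 for Acvr2a, -0.0149 for Chrd, -0.0318 for Smad4 and -0.0219 for Smurf1. Leaving out a library gave -0.0211 to 0.0576 for Smad4, -0.0173 to 0.0412 for Acvr1b, -0.10 to 0.60 for Fst, -0.38 to 0.0028 for Bmp7, -0.0464 to 0.126 for Bmpr1a and -0.12 to 0.17 for Chrd. With upper-quartile scaling Bmpr1a, Bmpr2 and Acvr2a were called higher, and Acvr1 and Smad9 were not called. A filter of at least 1 CPM in 2 libraries left Bmp3 and Fst untested. The cause of these changes was not tested. With the replicate number as a replicate block, 12 members were higher and 22 lower and no member's call changed. The deviations of same-numbered libraries from their group means correlated at -0.0010, so the numbers were not read as pairs. Depth limits Bmp4, Bmp5, Gdf10, Inhba, Tgfb1, Eng, Grem1 and Ltbp2, which had too few reads to test.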
